A study of Drosophila melanogaster with 6 samples.

Results

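The mitochondrial ribosomal protein genes of Drosophila melanogaster were followed in adult heads. They were taken as every gene of the deposited expression table whose symbol begins with mRpL or mRpS followed by a digit, a choice that uses no expression value. The table held 72 such genes among 11836, and all 72 passed the filter of a mean of at least 1 FPKM, which 8465 genes passed. FPKM, fragments scaled by gene model length and by library size, corrects for length, so levels can be set side by side between genes. The tested flies were Prp31_P18, homozygous for a mutation of Prp31, a gene of the spliceosome whose human counterpart is mutated in a hereditary retinal degeneration. The controls were w, described only as white. Each group had 3 libraries, each from 50 pooled heads of flies aged 2 days raised at 25 °C. Heads of both sexes were used in the series. The labels do not say what the P18 allele changes, which alleles the genotypes otherwise carry, or whether replicates came from separate cultures, so p-values reflect the spread of these libraries alone, which may be technical.

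The mitochondrial ribosome translates the few messages of the mitochondrial genome, all of which encode subunits of the oxidative phosphorylation complexes. Its RNAs come from that genome, but its proteins are encoded in the nucleus, made in the cytosol and imported. Some descend from the bacterial ribosome and others exist only in mitochondria. Muscle, neurons and photoreceptors, with their high demand for ATP, depend strongly on mitochondrial translation.

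Column totals were 348791 to 402452 FPKM, and since exact read depths are not known, counting errors per gene were not computed. The photoreceptor markers were abundant throughout, with ninaE, the major rhodopsin gene, at 11886 to 15585 FPKM in Prp31_P18 heads and 9201 to 11582 FPKM in w heads. The w replicate 3 library stood apart from w replicates 1 and 2. The summed level of 6 fat body markers, most of it yolk protein transcripts, was 17482 to 46514 FPKM in Prp31_P18 heads, against 3744 and 4154 FPKM in w replicates 1 and 2 and 19847 FPKM in w replicate 3. None of the 6 was called (limma adjusted p 0.0905 to 0.626). The fit gene, expressed in the fat body of female heads, had 369 to 1154 FPKM in Prp31_P18 heads, against 21.4 and 23.0 FPKM in w replicates 1 and 2 and 701 FPKM in w replicate 3. The summed level of 4 muscle markers was 592 to 773 FPKM in Prp31_P18 heads, against 1671 and 1585 FPKM in w replicates 1 and 2 and 848 FPKM in w replicate 3. Of the 4, Act88F and Mlc2 fell by the test used below. The summed level of 3 pigment cell markers was 60.7 to 72.9 FPKM in Prp31_P18 heads. It was 182 and 166 FPKM in w replicates 1 and 2 and 111 FPKM in w replicate 3. Most of that sum was Pu. For st the values were 2.34, 2.28 and 3.01 FPKM in Prp31_P18 heads, against 20.3, 18.3 and 16.0 FPKM in w heads. There w replicate 3 stayed near the other controls. Of the 3, st and Pu fell, while the gene w was below the filter and not tested. The gene w had 0.284, 0.373 and 0.524 FPKM in Prp31_P18 heads, against 0.023, 0.015 and 0.046 FPKM in w heads. Of 3 haemocyte markers Hml fell. Results with a yolk protein covariate are given below, and the part of muscle, pigment cells and haemocytes in the results was not tested.

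The 72 genes were expressed in a narrow band. Their mean levels over the 6 libraries ran from 5.80 to 48.5 FPKM with a median of 19.4 FPKM, and 61 of them lay between 10 and 30 FPKM. The middle of the distribution spanned 16.3 to 24.1 FPKM, a ratio of 1.48 between its quartiles, whereas the quartiles of all genes tested were 4.57 and 22.2 FPKM. The most abundant were mRpL28, mRpL24, mRpL30, mRpL12 and mRpL42, all of the large subunit. Relatives of mRpL12 form the flexible stalk to which translation factors bind. mRpL28 had 43.5, 48.1 and 43.3 FPKM in Prp31_P18 heads, against 56.6, 53.2 and 46.1 FPKM in w heads. The groups overlapped for mRpL28, since 1 mutant library lay above w replicate 3, and the gene was not called (log2 fold change -0.20, SE 0.10). The least abundant were mRpS9, mRpL21 and mRpS18B. mRpS9 had 5.63, 5.92 and 5.12 FPKM in Prp31_P18 heads, against 6.42, 6.38 and 5.31 FPKM in w heads, which also overlapped. It shares 325 exonic bases with ArgRS-m on the opposite strand, and no source used here says if reads were counted by strand. Levels in Prp31_P18 and w heads were correlated, at r = 0.94 between the log2 group means of the 72 genes (Pearson, a description). These genes are not independent replicates and share gene models and libraries.

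In Prp31_P18 heads 8 of the 72 genes fell and 1 rose, and 63 did not pass the test (limma on log2(FPKM + 1), Benjamini-Hochberg over 8465 genes, adjusted p under 0.05). The share called, 12.5%, lay near the 11.3% of all genes tested that were called. In the downward direction it was 11.1% beside 7.81%, and 3.53% of all genes were called as higher. With unadjusted p under 0.05, 24 members were lower, 33.3%, beside 19.2% of all genes, and 2 were higher, 2.78%, beside 8.14%. Most changes were small. The log2 fold change was negative for 61 of 72 genes, or 84.7%, beside 64.1% of all genes, with a median of -0.14 beside -0.07. It lay within 0.25 of 0 for 55 genes, and the median SE over the 72 genes was 0.08. The summed level of the 72 genes was 1398, 1415 and 1322 FPKM in Prp31_P18 heads, against 1593, 1590 and 1465 FPKM in w heads. These sums did not overlap, but w replicate 3 was closer to the mutants than to the other controls. In bulk heads, fewer cells of a type and less RNA per cell cannot be told apart.

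**Figure D1:**
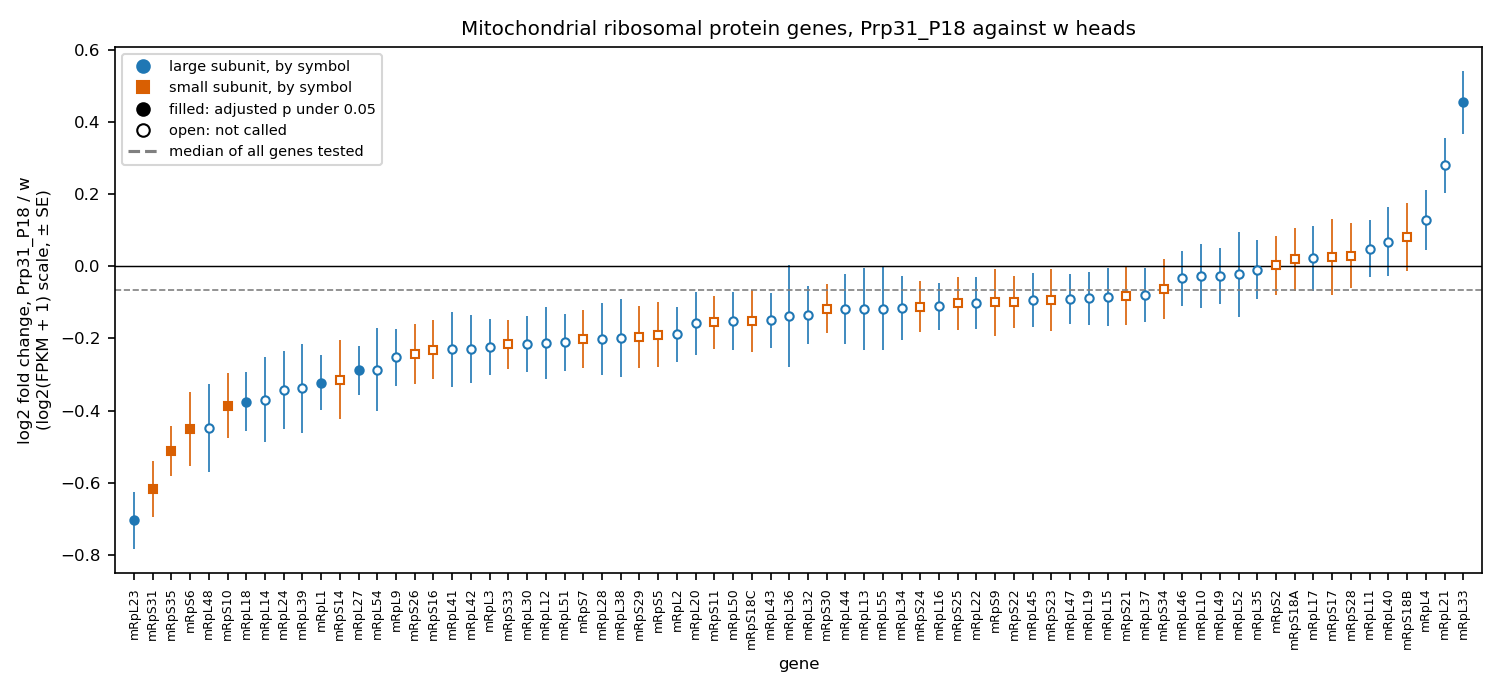
Each point is 1 of the 72 genes, ordered by its log2 fold change of Prp31_P18 over w (y axis, log2(FPKM + 1) scale, bars ± SE), with circles for the large and squares for the small subunit. Filled points are the 9 called genes, and most points lie just below 0, from -0.70 for mRpL23 to 0.45 for mRpL33.

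The largest decrease was that of mRpL23, a large subunit protein whose bacterial relative sits at the mouth of the tunnel through which the new protein leaves. mRpL23 (FBgn0035335, 3L, 2372844 to 2373704, build BDGP6, 2 introns) had 17.9, 19.6 and 19.1 FPKM in Prp31_P18 heads, against 33.3, 31.7 and 29.1 FPKM in w heads. All mutant libraries lay well below all controls, and the mutant mean was 60.1% of the control mean. In limma its log2 fold change was -0.70, with an SE of 0.08 and an adjusted p of 0.00196. It shares 33 exonic bases with CG8993 on the opposite strand.

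mRpS31 and mRpS35 followed, both proteins of the small subunit that bacteria lack. mRpS31 (FBgn0036557, 3L, 16005193 to 16006599, 2 introns) had 15.9, 14.0 and 13.9 FPKM in Prp31_P18 heads, against 23.3, 22.8 and 22.4 FPKM in w heads (log2 fold change -0.62 ± 0.08 SE, adjusted p = 0.00288 in limma). mRpS35 (FBgn0035374, 3L, 2780899 to 2782105, 1 intron) had 17.2, 16.8 and 17.5 FPKM in Prp31_P18 heads, against 25.3, 25.9 and 23.6 FPKM in w heads (log2 fold change -0.51 ± 0.07 SE, adjusted p = 0.0042 in limma). For both genes the groups were separated by several times the spread within them. On the opposite strand mRpS31 shares 48 exonic bases with mib1. The calls of mRpL23, mRpS31 and mRpS35 held under all 17 alternatives, with adjusted p up to 0.0147, 0.0248 and 0.0301.

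mRpS6 and mRpS10, small subunit proteins with bacterial relatives in the platform and in the head of the subunit, fell less. mRpS6 (3L, 4364550 to 4365243, 2 introns) had 10.3, 8.68 and 10.6 FPKM in Prp31_P18 heads, against 14.6, 12.3 and 14.7 FPKM in w heads (log2 fold change -0.45, limma adjusted p = 0.0317). mRpS10 (3R, 15229665 to 15230516, 2 introns) had 12.2, 13.1 and 12.2 FPKM in Prp31_P18 heads, against 16.6, 18.5 and 15.0 FPKM in w heads (log2 fold change -0.39, limma adjusted p = 0.0333). Neither pair of groups overlapped.

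The remaining decreases were in the large subunit. mRpL18, whose bacterial relative binds the smallest ribosomal RNA, had 17.9, 16.3 and 15.5 FPKM in Prp31_P18 heads, against 20.5, 23.0 and 21.9 FPKM in w heads (2R, 12756434 to 12757173, no intron, log2 fold change -0.38, limma adjusted p = 0.0276). mRpL1, whose relative forms the mobile stalk where spent tRNA leaves, had 17.6, 17.1 and 15.5 FPKM in Prp31_P18 heads, against 20.7, 21.8 and 21.0 FPKM in w heads (3R, 8301440 to 8302770, 2 introns, log2 fold change -0.32, limma adjusted p = 0.0341). mRpL27, whose relative reaches toward the catalytic centre, had 16.3, 16.4 and 15.8 FPKM in Prp31_P18 heads, against 19.5, 21.1 and 19.5 FPKM in w heads (2L, 4458595 to 4459638, 2 introns, log2 fold change -0.29, limma adjusted p = 0.036). In each of the 3 genes every mutant library was below every control. On the opposite strand mRpL18 shares 41 exonic bases with ox, and mRpL1 shares 85 with nac. The ox gene had 290, 313 and 307 FPKM in Prp31_P18 heads, against 439, 438 and 321 FPKM in w heads. Its log2 fold change was -0.38, and it was not called.

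The gene that rose was mRpL33, which encodes a small protein of the large subunit. mRpL33 (FBgn0040907, X, 4321764 to 4322231, 2 introns) had 33.8, 33.4 and 32.9 FPKM in Prp31_P18 heads, against 26.6, 24.2 and 21.8 FPKM in w heads. The mutant libraries were tightly grouped and above every control, at 138% of the control mean (log2 fold change 0.45 ± 0.09 SE, adjusted p = 0.0169 in limma). mRpL21 was also higher without overlap, with 7.11, 7.53 and 7.67 FPKM in Prp31_P18 heads, against 5.87, 5.58 and 6.42 FPKM in w heads, but just missed the threshold (log2 fold change 0.28, limma adjusted p = 0.0578). With each library divided by its median ratio mRpL21 was called (0.0411), and the split of the members became 5 lower and 2 higher.

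**Figure D2:**
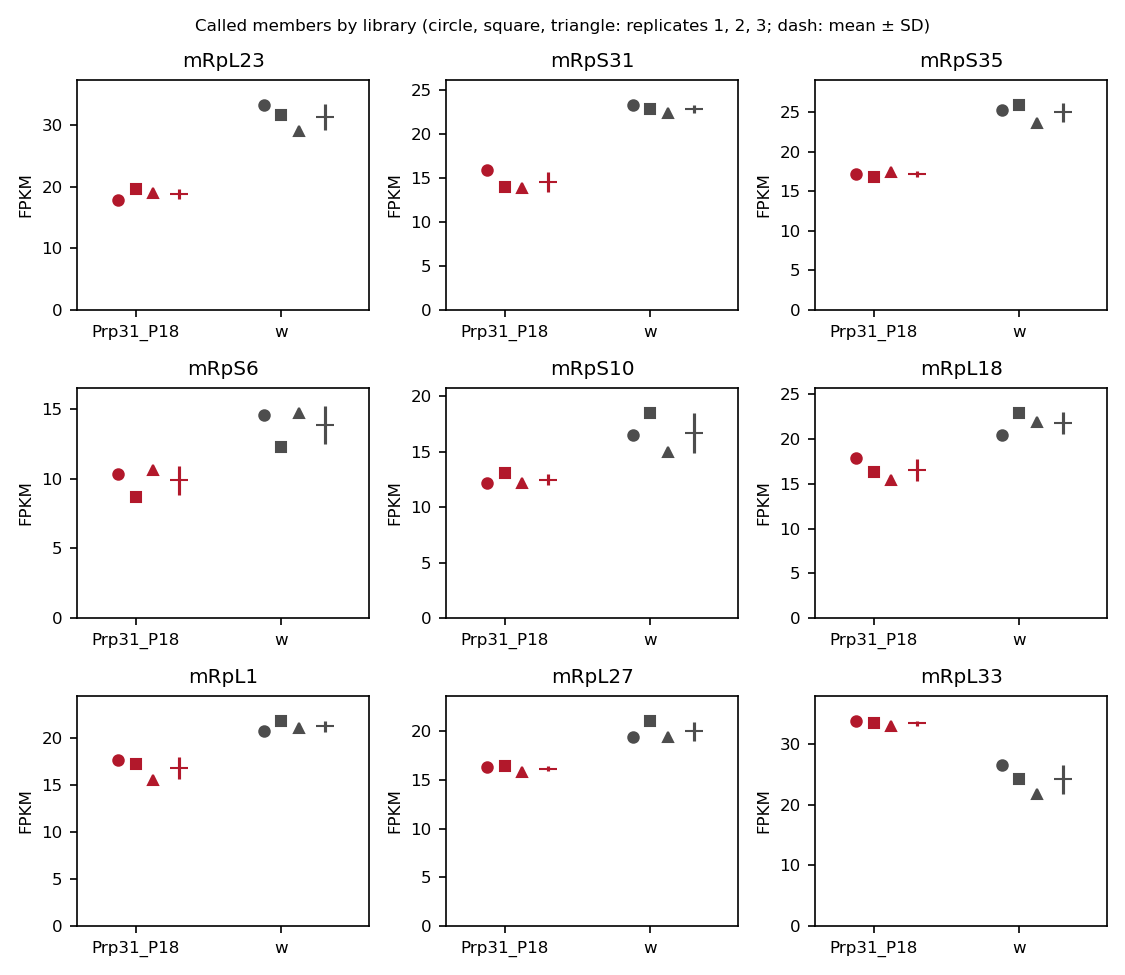
FPKM (y axis, from 0) of the 9 called genes in the 3 Prp31_P18 libraries (left in each panel) and the 3 w libraries (right), with the mean ± SD beside them. In 8 panels all mutant points lie below all control points, and in that of mRpL33 they lie above.

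Of these 9 calls, 6 were lost in most of the sets of 5 libraries, though their log2 fold changes stayed close to those above. Without Prp31_P18 replicate 1, 2 or 3 the members called were 4, 3 and 3, beside 6.57%, 7.7% and 6.2% of all genes, and without w replicate 1, 2 or 3 they were 4, 4 and 18, beside 4.81%, 5.78% and 26.1%. The 18 are 25% of the members, a share near that of all genes. Over the 5 sets that kept w replicate 3, mRpS6 lost its call except without w replicate 2 (limma adjusted p 0.0632 to 0.127), and mRpS10 and mRpL27 lost theirs in all 5 (0.07 to 0.119 and 0.0765 to 0.149). mRpL1 also lost its call in all 5 (0.0549 to 0.129), mRpL18 except without Prp31_P18 replicate 1 (0.0658 to 0.109), and mRpL33 except without w replicate 1 (0.0543 to 0.0634). The log2 fold changes over these sets were -0.53 to -0.37 for mRpS6, -0.42 to -0.31 for mRpS10, -0.31 to -0.25 for mRpL27, -0.36 to -0.27 for mRpL1, -0.43 to -0.33 for mRpL18 and 0.45 to 0.52 for mRpL33. With the yolk protein covariate 4 members were called, mRpL23, mRpS31, mRpS35 and mRpL33, or 5.56% beside 5.8% of all genes. The members' median was -0.06 beside -0.04 for all genes. A negative log2 fold change was found for 50 members, and its share over all genes was not counted. The covariate was partly aligned with genotype, since yolk protein levels in w replicates 1 and 2 lay below every mutant. Only w replicate 3 lay within the mutants' range, so genotype and covariate were separated mainly through that library. Of those that lost their call with the covariate, mRpS6 was at -0.59 (limma adjusted p = 0.0542), mRpL18 at -0.35 (0.153), mRpL1 at -0.26 (0.207), mRpL27 at -0.24 (0.198) and mRpS10 at -0.24 (0.275). With median-ratio scaling mRpS6 (0.0762), mRpS10 (0.0726) and mRpL27 (0.0849) lost their calls.

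Several genes were lower in every mutant library without passing. The largest such changes were those of mRpL48 (log2 fold change -0.45, limma adjusted p = 0.0581), mRpL14 (-0.37, 0.0908), mRpL24 (-0.34, 0.0854), mRpL39 (-0.34, 0.129) and mRpS14 (-0.31, 0.115). mRpL48 and mRpL39 are among the proteins that bacteria lack, while mRpL14, mRpL24 and mRpS14 belong to families shared with bacteria. mRpL48 had 13.3, 14.7 and 10.8 FPKM in Prp31_P18 heads, against 19.1, 18.8 and 15.9 FPKM in w heads. mRpL14 had 20.7, 23.0 and 18.5 FPKM in Prp31_P18 heads, against 30.1, 28.1 and 23.3 FPKM in w heads. In both genes the w replicate 3 value was the lowest control and the Prp31_P18 replicate 3 value the lowest mutant. Without w replicate 3 these 5 genes were called (limma adjusted p 0.0101 to 0.0319), as were mRpL54, mRpL28 and mRpS5 downward and mRpL21 upward, beside the original 9.

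On the FPKM scale that ordering of libraries was common among the members, but its share over all genes was not counted. Prp31_P18 replicate 3 was the lowest mutant library in 45 of 72 genes, and w replicate 3 the lowest control in 51 of 72. With median-ratio scaling these counts were 24 and 49, so that of Prp31_P18 replicate 3 depended on the scaling. Over all genes tested the median log2 deviation from the mean of all libraries was -0.091 in Prp31_P18 replicate 3. It was 0.013 and -0.018 in Prp31_P18 replicates 1 and 2. In w replicate 3 it was 0.029, beside 0.043 and 0.031 in w replicates 1 and 2. In 30 members, 41.7%, all mutant libraries lay below all controls, beside 21.8% of all genes tested. In 2 members, 2.78%, they lay above, beside 9.46%. Against w replicates 1 and 2 alone, all mutants were lower in 50 genes, 69.4%, beside 36.7% of all genes. Against w replicate 3 alone they were lower in 34 genes, 47.2%, beside 39.7%. With median-ratio scaling the shares against all 3 controls were 26.4% of members and 15.3% of all genes, and against w replicate 3 alone 30.6% and 29.4%.

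Decreases were found in both subunits. By their symbols 46 genes belong to the large and 26 to the small subunit, and 4 of each fell, with medians of -0.14 and -0.13. The counterparts of mRpS30 and mRpS18A sit in the large subunit of the mammalian mitochondrial ribosome in spite of their names. Of the 46 genes of families shared with bacteria, mRpL47, mRpL55, mRpS24 and mRpS28 counted among them by their universal names, 6 fell and 1 rose (median -0.13), and of the 26 others 2 fell and 0 rose (median -0.15). Beside these counts, 7.81% of all genes tested were called as lower and 3.53% as higher. The 3 relatives of the bacterial protein S18 were unequal in level but none was called: mRpS18A averaged 19.6 ± 1.07 and 19.4 ± 1.74 FPKM, mRpS18C 15.1 ± 0.890 and 16.9 ± 1.52 FPKM, and mRpS18B 8.53 ± 0.524 and 8.04 ± 0.917 FPKM in Prp31_P18 and w heads (SD, n = 3 each). mRpS29, whose human counterpart is the GTP-binding protein DAP3, averaged 15.5 ± 1.58 FPKM in Prp31_P18 heads and 17.8 ± 0.204 FPKM in w heads (log2 fold change -0.20, limma adjusted p = 0.195).

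The 4 largest decreases among members lay on 3L, the arm that also carries Prp31 (15159100 to 15161138). The smallest of the 4, mRpS6 at -0.451, was close to mRpL48 of 2L at -0.448. Of 17 members on 3L 4 were called, 23.5%, beside 13.3% of all genes tested on that arm. Of the 55 elsewhere 5 were called, 9.09%, beside 10.9% of all other genes. On 3R alone 14.2% of all genes were called, more than on 3L, and 9.52% of the members there. The 3L members had a median log2 fold change of -0.19 and the others one of -0.12, beside -0.07 for all genes on 3L and for those elsewhere. Position along the arm differed among the 4. mRpS31 lies 0.846 Mb from Prp31, while mRpS6, mRpS35 and mRpL23 lie 10.8, 12.4 and 12.8 Mb away. Of the 3 members within 2 Mb of Prp31 mRpS31 alone was called. mRpL39, at 0.161 Mb the nearest, had 11.2, 10.6 and 8.54 FPKM in Prp31_P18 heads, against 13.5, 14.4 and 11.2 FPKM in w heads, and the remaining one, mRpS34, had a log2 fold change of -0.06. The labels do not say what else differs between the chromosomes of these strains, so effects of linked alleles and of the mutation cannot be told apart.

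**Figure D3:**
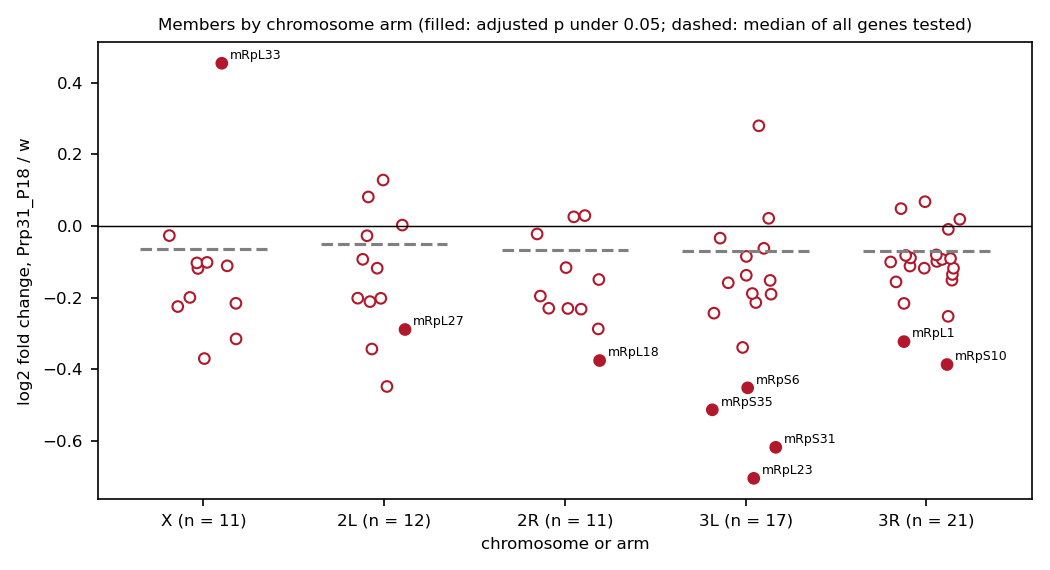
Log2 fold changes of Prp31_P18 over w (y axis) for the 72 genes by chromosome or arm (x axis), filled where called, with a dashed line at the median of all genes tested on that arm. The 4 lowest points, mRpL23, mRpS31, mRpS35 and mRpS6, are on 3L.

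Called genes were found among members with 0, 1 and 2 introns. Of the 8 members with no intron 1 fell (median log2 fold change -0.20), and of the 31 with 1 intron 1 fell (median -0.12). Of the 25 with 2 introns 6 fell and 1 rose (median -0.15), and of the 8 with 3 or more introns none was called (median -0.18). Over all genes tested 7.81% were called as lower and 3.53% as higher. Their shares by intron number were not counted, so these counts cannot be read as a trait of genes with 2 introns. Across the 72 genes Spearman's rho between log2 fold change and intron number was -0.10, and with mean level it was -0.11, both as descriptions. Exons of 42 members overlap another gene, 41 of them on the opposite strand, so part of their values could belong to a neighbour if reads were counted without regard to strand.

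Other genes of the mitochondrial translation system were mostly uncalled. tko and bonsai encode mitochondrial small subunit proteins under other symbols, and tko mutants are known in flies for seizures after mechanical shock. tko had 10.3, 12.5 and 9.60 FPKM in Prp31_P18 heads, against 13.7, 12.6 and 11.4 FPKM in w heads (log2 fold change -0.21, limma adjusted p = 0.276). bonsai had 25.4, 22.9 and 20.0 FPKM in Prp31_P18 heads, against 21.4, 20.0 and 20.6 FPKM in w heads (0.13, 0.415). Both overlapped between groups. Of 13 translation factors and related genes tested, these included, 1 fell, the release factor gene mRF1 (listed as CG5705), with 4.95, 4.83 and 3.82 FPKM in Prp31_P18 heads and 6.33, 5.87 and 6.53 FPKM in w heads (-0.39, limma adjusted p = 0.0446). That call was lost without any 1 library (0.0509 to 0.156) and in 5 other alternatives (0.0505 to 0.264). The list's median was -0.11.

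Of 14 mitochondrial aminoacyl-tRNA synthetase genes, which charge tRNAs inside the organelle, ValRS-m alone was called (median of the list -0.06, or 0.013 with median-ratio scaling and 0.015 with quantile normalization). ValRS-m, listed as CG5660 and also on 3L, had 2.46, 1.87 and 2.27 FPKM in Prp31_P18 heads, against 4.42, 4.43 and 4.79 FPKM in w heads. The groups were far apart (log2 fold change -0.80 ± 0.09 SE, adjusted p = 0.00223 in limma), and the call held under the 16 alternatives that tested the gene, which the filter of 5 FPKM left out. Of 16 genes of mitochondrial DNA and RNA maintenance mtSSB fell, which encodes the single-strand DNA binding protein (log2 fold change -0.40, limma adjusted p = 0.0209, median of the list -0.11). Without Prp31_P18 replicate 1 or 3 or w replicate 2 that call was lost (0.0604 to 0.0808), as it was with the yolk protein covariate (0.0793). Of 11 import genes Tim17b, of the inner membrane translocase, fell (-0.28, limma adjusted p = 0.0418, median -0.18), and it lost its call without Prp31_P18 replicate 2 or 3 or w replicate 1 or 2 (0.133 to 0.158). The call was also lost without the variance trend, with the replicate block, with the yolk protein covariate and with either median-ratio scaling or quantile normalization (0.0523 to 0.243).

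The nuclear oxidative phosphorylation genes and the cytosolic ribosomal proteins were set beside the members as descriptions, without a test between the groups. Of 68 nuclear oxidative phosphorylation genes 2 fell, ND-13B of complex I (log2 fold change -0.63, limma adjusted p = 0.0251) and COX7AL2, a cytochrome c oxidase subunit gene (-0.70, 0.0317). The list's median was -0.24, with 67 negative values, but 0.021 with the yolk protein covariate. Both calls were lost without any 1 library other than w replicate 3 (0.0748 to 0.106), with median-ratio scaling (0.053 and 0.0602) and with the covariate (0.167 and 0.286), and that of COX7AL2 also with quantile normalization (0.0629) and with no filter (0.0526). Without w replicate 3, 55 of the 68 were called as lower, beside 16.2% of all genes. Of 83 cytosolic ribosomal protein genes none was called, 1 was higher at an unadjusted p under 0.05 in limma, and the median was 0.34, but -0.12 with the covariate. Without w replicate 3, 80 of the 83 were called as higher, beside 9.93% of all genes. The most abundant of them, RpL41 and RpLP2, had log2 fold changes of 0.24 and 0.37 (limma adjusted p = 0.583 and 0.408). Of the 13 protein-coding genes of the mitochondrial genome, the messages that the mitochondrial ribosome translates, none was called and none had an unadjusted p under 0.05 in limma. Their median was -0.01, and 0.070 with median-ratio scaling, 0.12 with the covariate, -0.11 with quantile normalization and -0.098 without w replicate 3, where 2 of the 13 were called as lower. In 3 of the 13 all mutant libraries lay above all controls, beside 9.46% of all genes, and in 0 below, beside 21.8%. The SE was 0.27 for mt:CoI and 0.30 for mt:CoIII, beside a median of 0.08 over the members, so small changes could hardly be called. mt:CoI averaged 6138 ± 179 FPKM in Prp31_P18 heads and 5593 ± 120 FPKM in w heads, and mt:CoIII 7072 ± 347 and 7127 ± 755 FPKM (SD, n = 3 each), in a poly(A)-selected library.

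**Figure D4:**
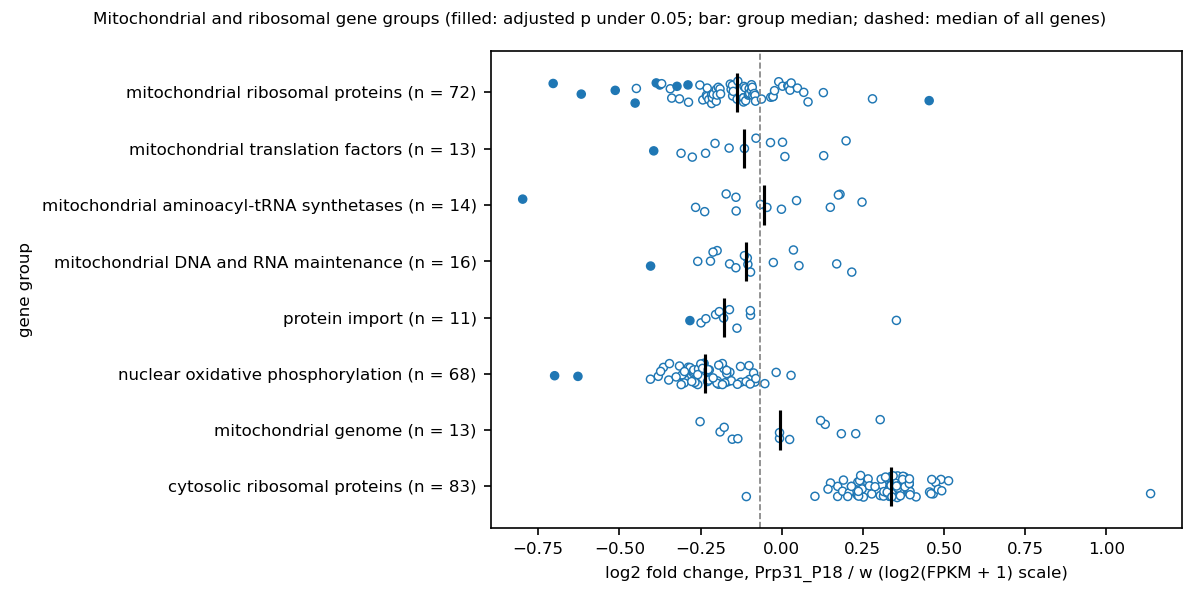
Log2 fold changes of Prp31_P18 over w (x axis) for the genes tested in 8 groups (y axis), filled where called, with a bar at each group's median and a dashed line at the median of all genes. The mitochondrial ribosomal proteins centre at -0.14, between the nuclear oxidative phosphorylation genes at -0.24 and the mitochondrial genome at -0.01, and the cytosolic ribosomal proteins at 0.34. The sign of the last 3 medians turned with the yolk protein covariate.

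The place of w replicate 3 differed between these groups. As the median deviation from the 6-library mean in log2, the mitochondrial ribosomal proteins were at -0.04, -0.04 and -0.14 in Prp31_P18 heads, against 0.12, 0.11 and -0.01 in w heads, so that w replicate 3 lay between the mutants and the other controls. The nuclear oxidative phosphorylation genes were at -0.16, -0.06 and -0.14 in Prp31_P18 heads, against 0.24, 0.23 and -0.14 in w heads, with w replicate 3 among the mutants. The cytosolic ribosomal proteins were at 0.11, 0.14 and 0.26 in Prp31_P18 heads, against -0.36, -0.40 and 0.29 in w heads, where w replicate 3 was above every mutant. The differences between w replicate 3 and the other controls thus ran the same way as those of the mutants in all 3 groups, beside the fat body, fit, muscle and pigment cell marker values given above.

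**Figure D5:**
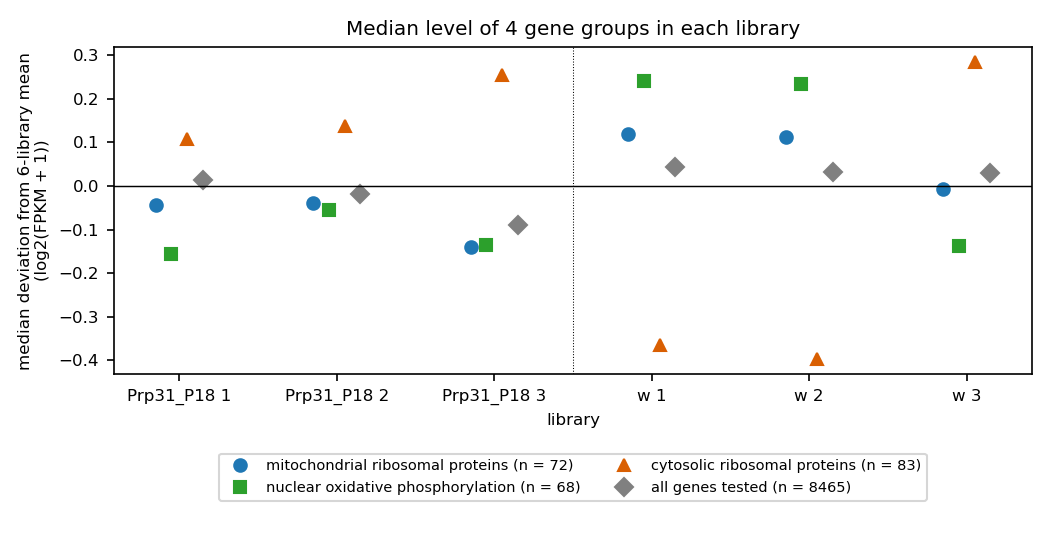
Median deviation of each gene group from its 6-library mean (y axis, log2(FPKM + 1)) in each library (x axis, Prp31_P18 left and w right). The w replicate 3 points of the nuclear oxidative phosphorylation and cytosolic ribosomal groups, at -0.14 and 0.29, lie with or beyond the mutants, and that of the mitochondrial ribosomal proteins, at -0.01, lies between.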

How the data were processed

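Poly(A) RNA of heads was sequenced in 6 strand-specific libraries, per the labels' protocols. The authors deposited FPKM per gene and library, with replicates not pooled; CASAVA 1.8, STAR 2.5.2b and the build BDGP6 come from the submitters' processing notes. How FPKM were computed, with which annotation release, strand setting and filter, is not given in the sources used here. Since FPKM are not counts, the test was run on a log scale.

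The filter was a 6-library mean of 1 FPKM or more. On log2(FPKM + 1) of the 8465 genes it left, limma 3.58.1 (R 4.3.3) was run with a variance trend and without a replicate block. Tests were two-sided with Benjamini-Hochberg adjustment over all of them. Fold changes on this scale understate changes of low genes. The step was tested on simulated data, in 5 runs with 200 changed genes each and errors independent between genes. It recovered 0.8% of log2 changes of 0.25, 44.4% of 0.5, 86.4% of 1 and 98.8% of 2. False calls over all runs were 23. Small changes were thus mostly missed in the simulation, and an uncalled gene need not be unchanged. The runs changed 200 genes, while 960 were called in the data, and used the spreads of all genes tested. The recovered shares therefore need not hold for the 72 members. Positions, introns and overlaps are from the Ensembl release 115 annotation of the same assembly name, in which 70 members were found by identifier and 2 by symbol. Intron numbers are of the isoform with most exons. No sequences were used.

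The genes, lists and alternatives were chosen with earlier results of these data known. Of 65 symbols in the hand-written lists 10 had no match in the table. The named members are all called ones, the 5 most and 3 least abundant and the 5 largest uncalled changes. From each other list up to 3 called genes are named, or failing any call the 2 with the highest mean FPKM, besides tko and bonsai. mRpS18A, mRpS18C, mRpS29, mRpS30, mRpS34, mRpL47, mRpL54, mRpL55, mRpS24, mRpS28, mRpS5 and ox were named after their values were seen. The 17 alternatives were median-ratio scaling, quantile normalization, pseudocounts of 0.5 and 0.1, a filter raised to 5 FPKM or left out, array weights, limma with a robust prior or without the trend, the replicate number as a block, a yolk protein covariate (Yp1 to Yp3, averaged in log2 per library), and each library left out in turn.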

Additional observations from a re-analysis of the deposited data

How the results depend on the processing

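The number of members called was 9, with 8 lower and 1 higher. It ran from 3 to 18 with 1 library left out (3 to 16 lower, 0 to 2 higher). With array weights it was 34 (31 and 3), or 47.2% of members beside 39% of all genes. With the yolk protein covariate it was 4 (3 lower), or 5.56% beside 5.8%. Median-ratio scaling and quantile normalization each gave 5 lower and 2 higher, or 9.72% of members beside 9.62% and 10.1% of all genes. The calls over all genes, 960, became 3298 with array weights, 629 with a filter of 5 FPKM, 491 with the covariate, and 406 to 2208 with 1 library left out. The members' median of -0.14 was -0.064 with median-ratio scaling and -0.056 with the covariate. The medians of all genes were then 9.5e-05 and -0.038, beside -0.066 in the main fit. The members' median minus that of all genes was -0.070 in the main fit. This difference was -0.064 with median-ratio scaling and -0.018 with the covariate. Both pseudocounts, no filter, the filter of 5 FPKM, no variance trend and the robust prior left the same 9 members called.

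With the replicate number as a block the members called were 14, with 13 lower, or 19.4% beside 13.5% of all genes. Deviations of same-numbered libraries from their group means correlated at -0.01, 0.21 and 0.32. Prp31_P18 replicate 1 correlated best with w replicate 2 (0.14), replicate 2 with w replicate 1 (0.31) and replicate 3 with w replicate 3. Deviations within a group are bound to cancel out, so these values cannot decide whether same-numbered libraries share a batch.

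Directions turned only for uncalled genes among those named. With the covariate mRpS9 was at 0.10, mRpS18B at -0.046, RpL41 at -0.24, RpLP2 at -0.23, tko at 0.0049 and mt:CoIII at 0.12. mt:CoIII was 0.070 with median-ratio scaling and -0.098 to 0.044 with 1 library left out, and mt:CoI -0.15 with quantile normalization. The cause of these shifts was not tested. Read depth is not known here, so what it limits was not measured.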
